A study of Mus musculus with 4 samples.

Results

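The genes described here carry out the uptake and mitochondrial oxidation of fatty acids in the mouse left ventricle. They were chosen by name, as a list of 37 genes, and each was read from the probe set of its own with the highest mean log2 value over the 4 arrays of the study. Of the 37, 35 had such a probe set, and 31 reached a floor of 64 intensity units on at least 1 array, out of 12393 genes with a probe set and 5158 at or above the floor. Lipe, Cpt1a, Acot2 and Ucp3 lay below the floor on all 4 arrays. Acsl1 had no probe set in the annotation used here, and the probe set that covers Cpt1b also covers other genes, so neither was analysed here. Just inside the floor, the highest values of Acot1 and Mlycd over the 4 arrays were 110.9 and 433.7 units; just outside it, Cpt1a reached 61.1 and Ucp3 38.0.

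The series asks what part the cytokine IL-18 plays in a ventricle that hypertrophies under pressure. Total RNA of the left ventricle was hybridised to 1 array for each of 4 groups: wild-type mice after a sham operation (WT sham), wild-type mice after transaortic banding, a constriction of the aorta that raises the load on the ventricle (WT banded), mice lacking IL-18 after a sham operation (null sham), and mice lacking IL-18 after banding (null banded). The null mice carried the deletion on a C57BL/6 background; the strain of the wild-type mice and the age of all mice are not known here. Each array carried a pool of mice, 5 for null sham, 6 for null banded and 5 to 6 for the WT pools as the series design states it. Null banded is labelled as constricted for 1 week, and no time is known here for WT banded. With 1 pooled array per group no difference has a replicate check, so none carries an error or a p-value, and differences below are log2 differences between 2 arrays after values under 64 units were set to 64. A member is counted as higher or lower at a difference of at least 1 (2-fold), beside the share of all genes past the same threshold.

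Fatty acids are the main fuel of the adult heart. They are freed from lipoproteins by lipoprotein lipase or from stored triglyceride by adipose triglyceride lipase, enter the cardiomyocyte partly through CD36, and travel in the cytosol bound to a fatty acid binding protein. After activation to acyl-CoA they pass into mitochondria through the carnitine shuttle, which malonyl-CoA inhibits, and are shortened by repeated cycles of dehydrogenation, hydration, a further dehydrogenation and thiolysis. Electrons of the opening step reach the respiratory chain through the electron transfer flavoprotein. In hypertrophied hearts a lower expression of this pathway beside greater use of glucose is a well known pattern.

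The arrays differed in how signal was spread along transcripts. Gapdh, which the array probes at several positions along the transcript, had a signal at the 3′ end that exceeded the middle by 4.61 (log2, no floor) in WT sham, -0.16 in WT banded, 2.73 in null sham and 1.66 in null banded. For Actb the values were 4.88, 2.01, 4.69 and 4.57 in the same order. WT sham was therefore the array with the largest excess of 3′ over middle signal for both transcripts, clearly so only for Gapdh. For Actb its excess was close to that of null sham, and its middle signal, 4.08 (log2), lay below the floor. The 3′ signal itself was lowest in WT sham for both. WT sham is also the array on which many members were low. The part of this uneven signal in the differences from WT sham was not tested. Il18 itself gave 9.1, 7.4, 8.2 and 8.4 units, below the floor on every array, so it could not check the genotype labels. Cardiomyocyte markers were present throughout, with all 12 listed genes at or above the floor, while all 8 skeletal muscle markers and 6 of 7 adipocyte markers with a probe set, Adipoq among them and Cidea the exception, were below the floor on every array. In RNA from whole tissue, fewer cells of a type and less RNA per cell cannot be told apart.

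Hadha and Hadhb encode the alpha and beta subunits of the mitochondrial trifunctional protein, which carries out the last steps of the cycle on long-chain substrates. The genes lie head to head in RefSeq, so that 1 short stretch of DNA precedes both starts, yet their probe sets behaved very differently across the arrays. The 272 bases between the annotated starts, plus strand of chr5:30154981-30155252 in GRCm38.p6, are shown because they are the shared upstream region of this pair.
Hadha-Hadhb: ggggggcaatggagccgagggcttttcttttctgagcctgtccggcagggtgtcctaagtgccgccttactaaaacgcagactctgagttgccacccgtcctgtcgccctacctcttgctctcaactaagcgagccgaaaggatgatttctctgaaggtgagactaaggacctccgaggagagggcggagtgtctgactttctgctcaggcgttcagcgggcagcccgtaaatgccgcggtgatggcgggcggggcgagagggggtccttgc

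The upstream 250 bases of 3 acyl-CoA dehydrogenase genes are shown because these enzymes catalyse the same opening step on chains of different length and fell into both patterns described below. Capitals mark AGGTCA on either strand (TGACCT where it lies on the other strand), the half-site that PPAR, RXR and oestrogen-related receptors bind. The sequences are RefSeq windows of GRCm38.p6, on the minus strand at chr3:153944644-153944893 for Acadm, chr11:70015429-70015678 for Acadvl and chr5:115119347-115119596 for Acads.
Acadm: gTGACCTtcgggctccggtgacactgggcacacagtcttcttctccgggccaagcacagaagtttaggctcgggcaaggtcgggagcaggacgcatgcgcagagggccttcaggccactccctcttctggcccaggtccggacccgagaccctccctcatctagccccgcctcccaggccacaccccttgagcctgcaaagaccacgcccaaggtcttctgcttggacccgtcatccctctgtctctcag
Acadvl: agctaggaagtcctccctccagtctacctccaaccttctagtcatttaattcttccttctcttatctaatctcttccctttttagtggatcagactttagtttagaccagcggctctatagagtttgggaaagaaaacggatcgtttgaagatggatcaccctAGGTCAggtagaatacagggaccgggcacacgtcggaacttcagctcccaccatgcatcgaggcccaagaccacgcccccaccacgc
Acads: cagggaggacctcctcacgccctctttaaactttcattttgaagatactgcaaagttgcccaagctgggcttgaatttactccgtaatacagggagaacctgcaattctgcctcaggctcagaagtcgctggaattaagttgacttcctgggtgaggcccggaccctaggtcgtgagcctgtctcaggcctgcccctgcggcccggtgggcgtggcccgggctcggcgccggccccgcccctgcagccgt

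Over whole windows of 250 bases before to 50 after a start, AGGTCA on either strand was found for 7 of the 30 members with a window (23.3%: Acacb, Acadm, Acadvl, Cd36, Cpt1a, Echs1 and Ucp3), against 18.1% of 27025 genes. The direct repeat AGGTCANAGGTCA, which contains the half-site, was in the window of 0 members and 0.0481% of genes, and TCAAGGTCA, which also contains it, in 0 members and 0.466% of genes. The share for the members was near that for all genes, and these letters describe only these windows.

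Most measured members either stayed within 2-fold over all arrays or were at least 2-fold lower on the WT sham array than on every other. Of the 31, 12 were at least 2-fold lower in WT sham than on each of the other arrays (38.7%), against 12.2% of the 5158 genes measured. These 12 were Acads, Acadvl, Hadha, Echs1, Decr1, Crat, Etfb, Fabp3, Acacb, Pnpla2, Pdk2 and Hsd17b10. On 7 of the 12 the null banded array was also at least 2-fold below the WT banded array, and the median of that difference over the 12 was -1.13. By that definition none of the 12 could stay within a range of 1 (log2) over all 4 arrays. Of the 31 members, 17 stayed within that range, near the share of 57.5% for all genes. These 17 were all among the other 19, whose median range was 0.45. The exceptions among the 19 were Mlycd and Acaa1a. The median G and C content of the promoter windows was 59.9% for 10 of the 12 and 60.7% for 15 of the 19, against 52.8% for all genes.

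**Figure D1:**
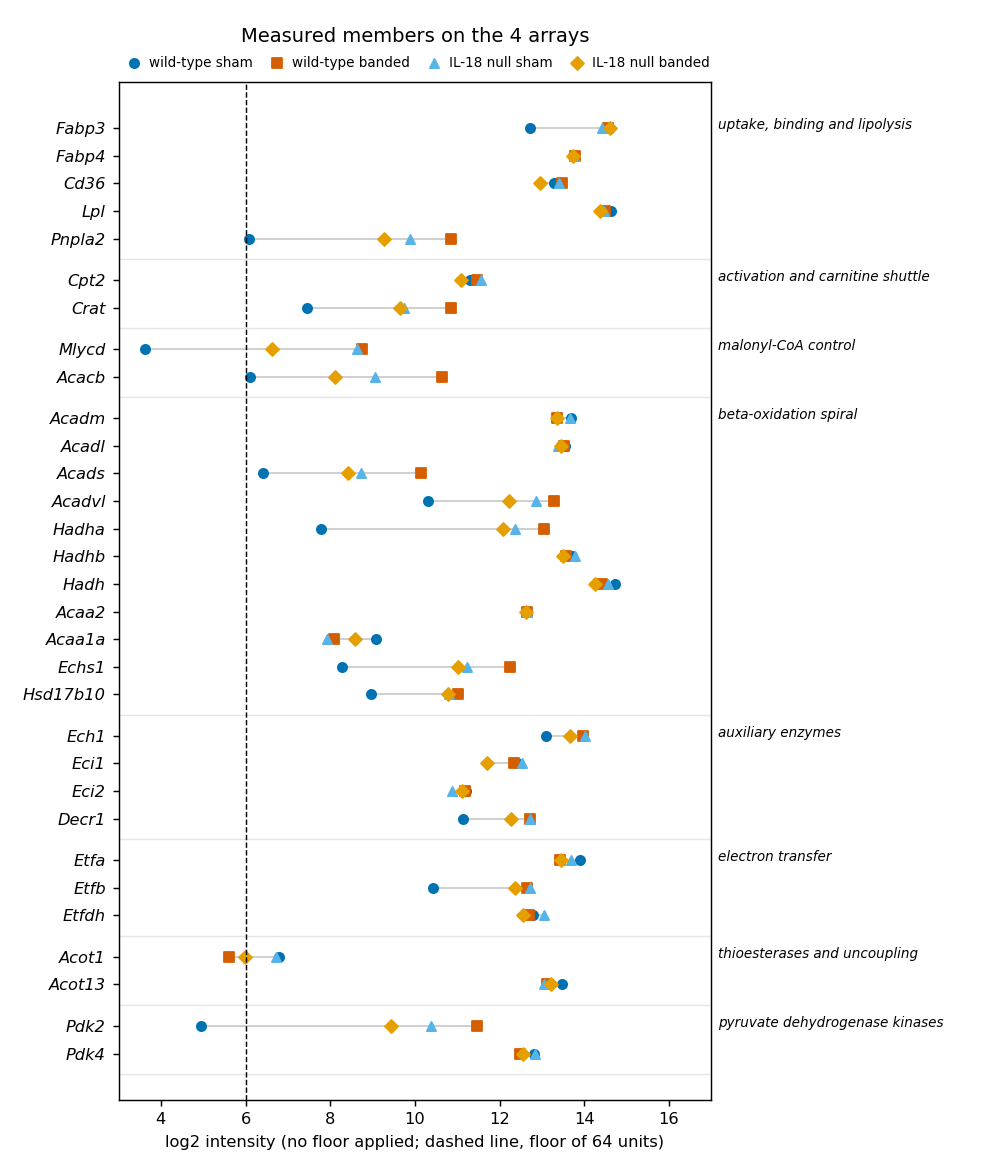
Log2 intensity (x axis, no floor) of the 31 measured members (rows, by role) on the 4 arrays, 1 marker per array, with the floor of 64 units as a dashed line. Markers of Acadm, Hadhb, Acaa2, Fabp4 and Pdk4 nearly coincide, while WT sham (blue circles) lies far to the left for Hadha, Pnpla2, Acacb, Mlycd and Pdk2.

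At the cell surface and in the cytosol, most uptake genes had much the same signal on all arrays on the probe sets used. Cd36, the fatty acid translocase, had 9984.5 units in WT sham, 11348.7 in WT banded, 10795.4 in null sham and 7958.6 in null banded. The null banded array was the lowest, by 0.44 against its own sham and by 0.51 against WT banded. Lpl, lipoprotein lipase, had 25359.4, 22950.3, 22790.1 and 21181.5 units in the same order, a total spread well inside 2-fold. Its other probe set, 1431056_a_at, had 4048.8 units in WT sham and 9276.8 in WT banded. Fabp4, a binding protein abundant in fat and capillary endothelium, had 13519.9, 14101.4, 13821.5 and 13702.7 units on the probe set used. No difference there was above 0.06 between any compared arrays.

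Fabp3, the heart form of the binding protein, behaved otherwise. It had 6735.4 units in WT sham against 24300.9 in WT banded, 21883.1 in null sham and 24870.0 in null banded. Only WT sham stood apart, by 1.85 from its banded counterpart and by 1.70 from the other sham array, while banding in null gave 0.18. Pnpla2, adipose triglyceride lipase, had 67.3 units in WT sham, barely above the floor, against 1845.1, 945.7 and 615.6. Its differences were 4.78 for WT banding, -0.62 for null banding, 3.81 for null over WT in sham and -1.58 in banded. Lipe, hormone-sensitive lipase, was below the floor throughout, at 5.5 to 6.6 units.

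Of the carnitine shuttle, Cpt2 and Crat could be followed. Cpt2, the inner-membrane carnitine palmitoyltransferase, had 2506.3 units in WT sham, 2829.2 in WT banded, 3010.8 in null sham and 2191.8 in null banded, differing by no more than 0.46 with banding. Crat, carnitine acetyltransferase, which buffers mitochondrial acetyl-CoA, had 174.4, 1844.2, 862.2 and 805.4 units. It was higher by 3.40 with banding in WT, at -0.10 in null, and lower by 1.2 in null than in WT among the banded arrays. Cpt1a, the liver form of the outer-membrane transferase, had 61.1, 20.7, 27.5 and 35.8 units, all under the floor.

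On the probe sets used, the genes on either side of malonyl-CoA showed the widest genotype differences in the banded ventricle, with Pdk2 close behind at -2.02. Acaa2 was at -2.2 on 1455061_a_at, a probe set not used. Acacb, the mitochondria-associated acetyl-CoA carboxylase that makes malonyl-CoA, had 68.9 units in WT sham, 1595.4 in WT banded, 530.2 in null sham and 277.5 in null banded. It was lower by 2.52 in the null banded array than in the WT banded array, the largest such difference among the members. Mlycd, malonyl-CoA decarboxylase, which removes malonyl-CoA, had 12.4, 433.7, 394.7 and 99.3 units. Its null banded array was lower by 1.99 than null sham and by 2.13 than WT banded, with all 3 arrays above the floor. Its WT sham value lay below the floor, so the differences of 2.76 for WT banding and 2.62 for genotype in sham are bounds. The maker and the remover of malonyl-CoA thus had the same direction in every comparison.

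Within the beta-oxidation cycle, enzymes of the same step could differ in pattern. Acadm, the medium-chain dehydrogenase, had 13162.4 units in WT sham, 10557.7 in WT banded, 13018.2 in null sham and 10526.2 in null banded. Both banded arrays were lower than their shams, by 0.32 and 0.31, and the genotypes differed by 0.02 or less. Acadl, the long-chain enzyme, had 11923.8, 11759.0, 10707.6 and 11093.3 units, with no compared arrays differing by more than 0.16. Acadvl, the very-long-chain enzyme of the inner membrane, had 1257.7, 10048.8, 7485.7 and 4782.6 units. It was higher by 3.0 with banding in WT and lower by 0.65 with banding in null, and the banded arrays differed by 1.07 in favour of WT. Acads, the short-chain enzyme, had 85.8, 1126.2, 423.8 and 340.7 units, with differences of 3.71 and -0.31 with banding.

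The trifunctional protein's subunits differed most plainly of all. Hadha had 218.3 units in WT sham, 8503.1 in WT banded, 5226.9 in null sham and 4333.0 in null banded. Hadhb had 13487.2, 12142.7, 14091.5 and 11572.0 units. With banding in WT Hadha was higher by 5.28, or 39-fold, and Hadhb was at -0.15; between the sham arrays Hadha was higher by 4.58 in null and Hadhb by 0.06. In null banding, which does not use the WT sham array, the subunits were at -0.27 and -0.28. On the probe sets used, the genes that share the upstream region printed above therefore differed by almost the same amount in null and not in WT. The other Hadhb probe set, 1437172_x_at, was at 0.04 with banding in null and at -0.23 in WT.

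The hydratase, the short-chain hydroxyacyl-CoA dehydrogenases and the thiolase showed the same division. Echs1, the short-chain enoyl-CoA hydratase, had 308.3 units in WT sham, 4859.4 in WT banded, 2381.4 in null sham and 2081.1 in null banded. Hsd17b10, a dehydrogenase of short and branched chains, had 498.1, 2078.2, 1791.8 and 1769.6 units, so that only WT sham was low. Hadh, the main short-chain hydroxyacyl-CoA dehydrogenase, had 26853.5, 21987.6, 23995.4 and 19645.6 units, lower by 0.29 in each banded array. Acaa2, the mitochondrial thiolase, had 6334.1, 6444.0, 6461.9 and 6351.7 units on the probe set used, the narrowest range of all members. Acaa1a, the peroxisomal thiolase, ran the other way, with 538.6, 272.0, 243.0 and 386.4 units. It was the lone member at least 2-fold lower in null sham than in WT sham, by 1.15, and the array also has probe sets that it shares with Acaa1b, which were not used.

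In WT banding, enzymes that prepare unsaturated chains for the cycle ran from -0.06 to 1.58, against -0.99 to 5.28 for genes of the cycle. Their median there was larger, 0.42 against 0.02. Ech1, a dienoyl-CoA isomerase, had 8776.9 units in WT sham, 16096.4 in WT banded, 16597.4 in null sham and 13028.6 in null banded, just short of 2-fold from WT sham to the others of its comparisons (0.87 and 0.92). Eci1, an enoyl-CoA isomerase, had 5419.6, 5193.7, 5919.3 and 3355.0 units. It was lowest in null banded, by 0.82 against null sham, while the other 3 arrays lay close together. Eci2, its peroxisomal and mitochondrial relative, had 2371.6, 2304.9, 1870.1 and 2225.1 units. Decr1, dienoyl-CoA reductase, had 2245.1, 6704.4, 6703.2 and 4914.7 units, a difference of 1.58 both for WT banding and for genotype in sham.

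The electron transfer flavoprotein repeated what was seen for the trifunctional protein. Its alpha subunit, Etfa, had 15180.0 units in WT sham, 11066.1 in WT banded, 13127.9 in null sham and 11225.0 in null banded. Its beta subunit, Etfb, had 1380.7, 6443.6, 6707.5 and 5259.1 units. WT banding gave -0.46 for Etfa and 2.22 for Etfb, while null banding gave -0.23 and -0.35. Etfdh, the oxidoreductase that passes the electrons on to ubiquinone, had 7043.5, 6611.4, 8485.8 and 6001.9 units, lower by 0.50 with banding in null and by 0.09 in WT.

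Thioesterases, which release free fatty acid from acyl-CoA, were within 2-fold where measured. Acot13 had 11292.1, 8890.1, 8422.5 and 9524.3 units in WT sham, WT banded, null sham and null banded. Acot1, a cytosolic enzyme induced by fatty acids through PPAR-alpha, had 110.9, 48.5, 104.5 and 63.1 units, so that both sham arrays were above the floor and both banded arrays below it. Its differences, -0.79 in WT and -0.71 in null, are bounds; with no floor the WT value passed 2-fold (-1.19). Acot2, its near-identical mitochondrial neighbour, stayed at 7.3 to 9.1 units on its own probe set, and a probe set that covers both genes was not used. Ucp3, the mitochondrial uncoupling protein of muscle, had 5.9, 38.0, 25.5 and 9.8 units, all below the floor.

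The pyruvate dehydrogenase kinases, which restrain glucose oxidation and so favour fatty acids, were split between the patterns. Pdk4, the form induced by fasting and PPAR-alpha, had 7134.2 units in WT sham, 5671.5 in WT banded, 7327.6 in null sham and 5963.9 in null banded. Both banded arrays were below both shams, by 0.33 in WT and 0.30 in null. Pdk2, the broadly expressed form, had 31.0, 2834.0, 1332.8 and 696.8 units. Its WT sham value was below the floor, so 5.47 for WT banding, the largest of any member, is a bound, as is 4.38 for genotype in sham. It was at -0.94 with banding in null and at -2.02 between the banded arrays.

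In WT, 13 of 31 members were at least 2-fold higher in the banded array (41.9%), against 21.7% of 5040 genes, and 0 were lower, against 12.8%. The median was 0.17, against -0.08 for all genes. The median moved to -0.06, against -0.42 for all genes, after quantile normalization, while the number of members higher stayed at 13 and 2 were then lower. The comparison of the sham arrays also subtracts WT sham, so it is not independent of this one. In null over WT among shams, 13 of 31 were higher, against 16.3% of 4851 genes, and 1 was lower, against 6.29%, with a median of 0.26 against -0.07. Endothelial markers, whose cells also express Cd36 and Fabp4, had 6 of 11 higher and 0 lower in WT banding. Their summed signals were 3004 units in WT sham, 6142 in WT banded, 4430 in null sham and 3597 in null banded. Fibroblast markers had 5 of 7 higher and 0 lower in WT banding, and their summed signal was 7959 units in WT sham and 22964 in WT banded. Macrophage markers had 5 of 9 higher and 0 lower, with sums of 4301 and 6724 units. Between the shams 3 of 8 endothelial, 2 of 7 fibroblast and 1 of 8 macrophage markers were higher in null and 0 lower. Summed cardiomyocyte marker signal was 201094 units in WT sham, 279564 in WT banded, 257483 in null sham and 253670 in null banded. Of the 12 cardiomyocyte markers, 3 were higher in WT banding (Mb, Ttn and Actn2) and 0 lower. Between the shams 2 were higher in null (Mb and Actn2) and 0 lower. The part of any of these lists in the members' differences was not tested.

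With banding in null, where neither array is WT sham, the members were lower by a small amount nearly throughout. The difference was below 0 for 26 of 31 members (83.9%), against 38.4% of 4827 genes. The median was -0.30, against 0.08 for all genes, and the lower and upper quartiles of the members were -0.48 and -0.06. Past 2-fold there were 0 members higher, against 6.98% of genes, and 1 lower, Mlycd, against 2.53%. The members that were not lower were Acaa1a (0.67), Eci2 (0.25), Fabp3 (0.18), Acot13 (0.18) and Acadl (0.05). Cardiomyocyte markers had a median of 0.01 in the same comparison with 0 of 12 past 2-fold, while 5 of 7 measured fibroblast markers and 5 of 9 measured macrophage markers were at least 2-fold higher. Summed fibroblast marker signal was 12037 units in null sham and 35202 in null banded, and that of macrophage markers 4124 and 10752. The 3′ signal of Gapdh over its middle was 2.73 in the sham and 1.66 in the banded array. The part of these in the members' differences was not tested.

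**Figure D2:**
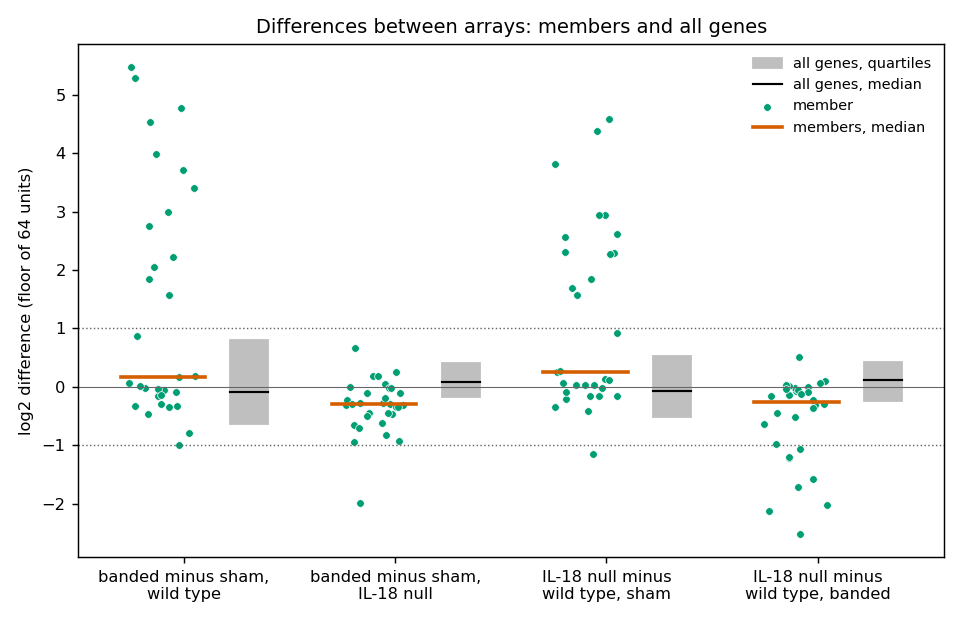
Log2 difference (y axis, floor of 64 units) of each measured member in the 4 comparisons of 2 arrays, with the members' median as an orange line, and the quartiles (grey box) and median (black line) of all genes in the comparison. In both comparisons with WT sham, 13 members lie above 1; in null banding all but Mlycd lie within 1 of 0.

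Among the banded arrays, members were lower in null than in WT. The difference was below 0 for 25 of 30 members (83.3%), against 39.8% of 4947 genes, with a median of -0.26 against 0.11. At least 2-fold lower were 8 (26.7%), against 7.74% of genes, and 0 were higher, against 5.7%. The 8 were Acacb (-2.52), Mlycd (-2.13), Pdk2 (-2.02), Acads (-1.72), Pnpla2 (-1.58), Echs1 (-1.22), Crat (-1.2) and Acadvl (-1.07). Hadha was just short, at -0.97. This comparison shares the null banded array with null banding and the WT banded array with WT banding. Gapdh 3′ signal over its middle was 1.66 in the null and -0.16 in the WT array, and 4 of 11 endothelial markers were at least 2-fold lower and 0 higher in null. Fibroblast markers had 3 of 7 higher in null (Col1a1, Col3a1 and Postn) and 0 lower, with sums of 22964 units in WT banded and 35202 in null banded. Macrophage markers had 2 of 10 higher and 1 lower, with sums of 6724 and 10752 units. Their part in the result was not tested.

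A small group of members was lower in both banded arrays than in both shams. This held for 8 of 31 (25.8%), against 15.8% of 5158 genes: Acadm, Hadhb, Hadh, Eci1, Etfa, Etfdh, Acot1 and Pdk4. Apart from Acot1, whose banded values lay below the floor, their banding differences were between -0.46 and -0.06 in WT and between -0.82 and -0.23 in null, all within 2-fold. Hadhb and Hadh belonged to the group only on the probe sets used. Hadhb had 8303.2 units in null sham and 8534.9 in null banded on 1437172_x_at. Hadh was at 2.51 with banding in WT on 1460184_at and at 0.01 in null on 1436756_x_at. Higher in both banded arrays than in both shams was 1 member, Fabp3, against 20.1% of genes, and its 3 arrays other than WT sham differed by 0.18 or less.

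The order of the arrays was shared by many members. From lowest to highest it ran WT sham, null banded, null sham, WT banded for 12 of 31 members (38.7%), against 8.14% of 5158 genes. It held for 10 of the 12 members that were low in WT sham, all but Etfb and Fabp3, against 34.6% of the 627 genes that were low there. No minimum difference was required. Decr1 was counted with 6704.4 units in WT banded against 6703.2 in null sham, and Fabp4 with 0.06 from lowest to highest. On their other measured probe sets Decr1, Hsd17b10 and Fabp4 did not have this order. The difference between the banding responses, null minus WT, was -1 or below for 14 members (45.2%), against 21.0% of genes, and 1 or above for 1, Acaa1a (1.65), against 20.4%. It ran to -6.40 for Pdk2, a bound, and -5.55 for Hadha. For all 14 but Mlycd the response within null was under 1 in size, so that their values rest mostly on the WT arrays.

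Several genes have more than 1 measured probe set, and these did not always agree. Of the 8 members with more than 1 at or above the floor, 5 had probe sets on different sides of 2-fold in WT banding (Hadh, Acaa2, Decr1, Lpl and Hsd17b10) and 2 in null banding (Acaa2 and Fabp4). Between the shams 4 did (Hadh, Acaa2, Decr1 and Hsd17b10), and between the banded arrays 2 (Acaa2 and Fabp4). For null against WT banded, 1455061_a_at of Acaa2 was at -2.2 and 1424155_at of Fabp4 at -2.02, against -0.02 and -0.04 on the probe sets used. For Acaa2, the probe set 1428145_at had 1204.7 units in WT sham, 6210.6 in WT banded, 6609.1 in null sham and 4853.6 in null banded, and 1455061_a_at had 6.0, 3478.6, 1688.6 and 756.0. On these the WT banding difference was 2.37 and 5.76 (a bound), against 0.02 on the probe set used, so the thiolase belongs to either pattern depending on the probe set. Hadh likewise had 1326.6, 7580.5, 7610.7 and 5396.7 units on 1460184_at, a WT difference of 2.51 against -0.29 on the probe set used. The remaining Hadh probe set, 1436756_x_at, had 672.9, 343.0, 527.5 and 530.3 units, with WT sham its highest array. Both other probe sets of Acaa2 and 1 of the other 2 of Hadh thus had the low WT sham value, and the probe sets used did not.

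For Decr1 and Hsd17b10 the reverse held. Decr1 had 2430.1, 2016.9, 2575.9 and 2469.7 units on 1449443_at, where WT banding gave -0.27 in place of 1.58. Hsd17b10 had 506.4, 494.8, 462.2 and 484.2 units on 1438391_x_at, where it gave -0.03 in place of 2.06. Lpl was at 1.2 on 1431056_a_at, against -0.14. Fabp4 was at -1.23 with banding in null on 1424155_at, with 447.0 units in sham and 190.5 in banded, while its other measured probe sets were at -0.01 and 0.10. Cd36, with 3 measured probe sets, and Hadhb, with 2, stayed within 2-fold on all of them in every comparison. In Acaa2, Hadh, Decr1 and Hsd17b10 the probe sets of the same gene thus disagreed on whether WT sham was low.

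**Figure D3:**
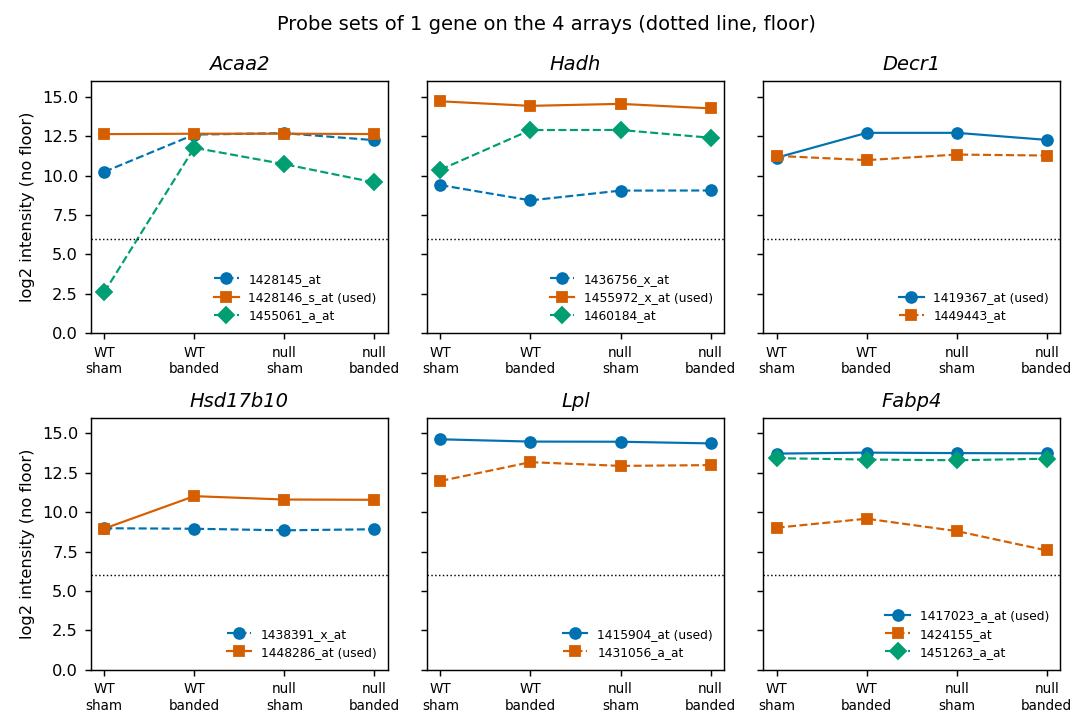
Log2 intensity (y axis, no floor) of the measured probe sets of 6 members on the 4 arrays, 1 line per probe set, solid for the probe set used and dashed for the others. In Acaa2, Hadh, Decr1 and Hsd17b10, 1 or 2 probe sets dip in WT sham while another stays level.

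Genes that govern or neighbour the pathway, from lists kept apart from the members, gave a mixed picture. Their counts past 2-fold stand beside 21.7% of all genes higher and 12.8% lower in WT banding, and 6.98% and 2.53% in null banding, and in lists of 4 to 14 measured genes a single gene is a large share. Of 13 regulators measured in WT banding, 3 passed 2-fold upward and 1 downward, and of 11 measured in null banding 0 and 2. The WT counts were near the shares of all genes. Ppargc1a, a coactivator of mitochondrial genes, had 1412.7 units in WT sham, 625.2 in WT banded, 809.4 in null sham and 303.0 in null banded, lower by 1.18 and 1.42 with banding. Ppargc1b, its relative, had 794.3, 1049.9, 1117.4 and 229.7 units, lower by 2.28 with banding in null and at 0.40 in WT. Rxrg, a partner receptor of the PPARs, was at 1.52 and -0.38. Ppara, the receptor that drives many of these genes, reached 65.0 units on WT banded alone, and Esrra was below the floor on all 4 arrays.

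Of 10 peroxisomal beta-oxidation genes, whose products shorten very long chains, 1 passed 2-fold upward and 3 downward in WT banding, and in null banding 0 of 9 and 1. Ehhadh, the peroxisomal bifunctional enzyme, was at -1.68 and -0.87 with banding in WT and null, the import receptor gene Pex7 at -1.2 and -0.35, and Pex11a, a gene of peroxisome division, at 1.87 and -1.36. In the list for carnitine supply and transport, 0 of 4 were higher and 1 lower in each genotype. Tmlhe, which opens carnitine synthesis, was at 0.34 and -1.88, Aldh9a1, a later enzyme of it, at -1.08 and -0.37, and Slc25a20, the carnitine-acylcarnitine carrier, at -0.69 and 0.62.

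Other uptake, binding and activation genes had 2 of 8 higher and 1 lower in WT banding, near the shares of all genes, and 3 and 0 in null. Fabp5, a binding protein of endothelium and macrophages, was at 0.07 and 1.43, Acss1, a mitochondrial acetyl-CoA synthetase, at 1.98 and -0.84, and Got2, mitochondrial aspartate aminotransferase, at 2.54 and -0.18. The lipid droplet list had 5 of 11 higher and 1 lower in WT banding, and 1 and 0 in null. Mgll, monoglyceride lipase, was at 2.65 and -0.20, Plin3, a droplet coat protein, at 2.27 and -0.16, and Dgat2, which makes triglyceride, at 2.23 and -0.77.

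Among other dehydrogenases and enzymes of odd-chain and ketone metabolism, 4 of 14 were higher and 0 lower in WT banding, and 0 and 1 in null. Bdh1, the ketone body enzyme hydroxybutyrate dehydrogenase, had 322.3 units in WT sham, 3660.5 in WT banded, 1476.8 in null sham and 1253.5 in null banded. Pcca, a propionyl-CoA carboxylase subunit, was at 1.58 and -0.23, and Acad8, of valine breakdown, at 1.28 and 0.22. Genes of glucose entry into oxidation had 5 of 14 higher and 1 lower in WT banding, and 0 and 0 in null. Slc2a4, the insulin-responsive glucose transporter, was at 3.15 and -0.95, the muscle phosphofructokinase gene Pfkm at 6.05 and -0.45, and Ldha at 1.41 and 0.22. Low values in WT sham were thus found outside fatty acid oxidation as well.

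**Figure D4:**
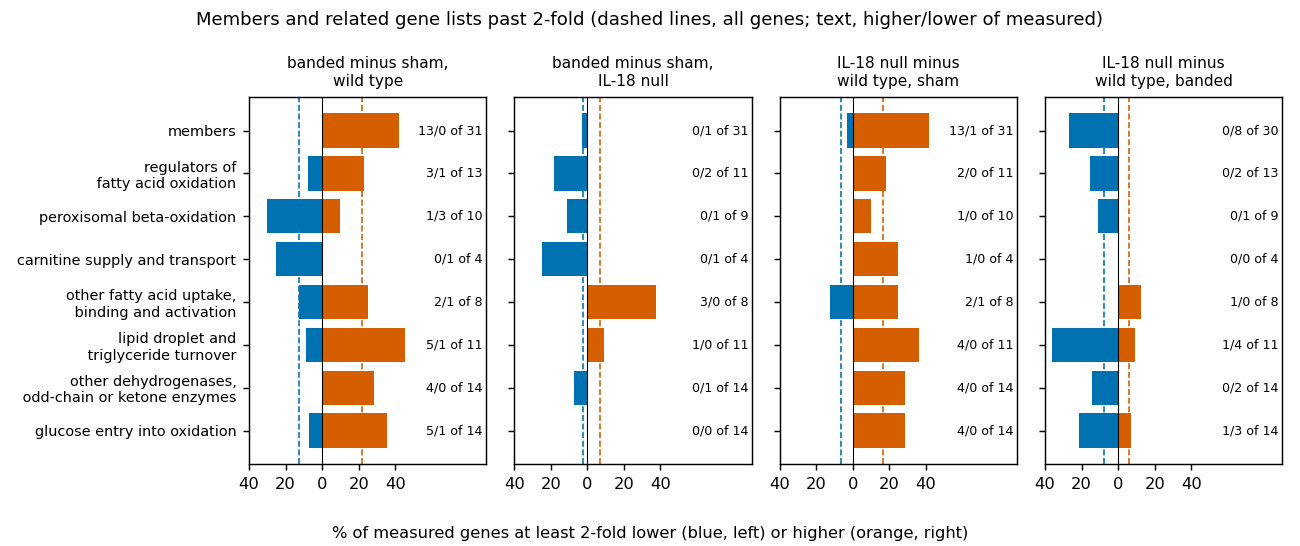
Share of measured genes (x axis, percent) at least 2-fold lower (left, blue) or higher (right, orange) for the members and 7 related lists in the 4 comparisons of 2 arrays; dashed lines mark the shares of all genes, and the text gives higher and lower counts of the genes measured. In WT banding the members (13 of 31) and the lipid droplet list (5 of 11) extend farthest to the right, and in null banding no list has more than 3 genes past 2-fold in a direction.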

How the data were processed

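Values were the authors' deposited intensity values, linear with 1 decimal (1.5 to 43811.1), computed with GCRMA per the submitters' processing notes; no version or settings of it are known here. The linear scale was read from the values. GCRMA adjusts background by probe sequence, and how later scaling was done is unknown. The number of arrays limits the precision.

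Of 22690 probe sets, 64 were controls, 20380 had 1 gene in the platform annotation, 691 several and 1555 none; only those with 1 gene were used. Gene identifiers of 20351 probe sets matched RefSeq (GRCm38.p6). Values were taken to log2, floored at 64 units and subtracted. A gene entered a comparison when 1 of its arrays reached the floor. No test was made, as each group is 1 array. Alternatives were floors of 32, 128 and none, quantile, cyclic loess and median scaling, other probe set choices and a 1.5-fold threshold. The members, roles and lists were chosen with earlier results of these data known. Members at or above the floor were described; up to 3 genes per related list with the largest difference in either banding comparison were named, leaving out differences with an array under the floor, together with Ppara, Ppargc1a and Esrra. Other marker lists, for atrial and red cells, had 4 of 5 and 1 of 2 genes measured. Counting was tested on simulated data. Software was Python 3.11.15, pandas 2.3.3, R 4.3.3 and limma 3.58.1.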

Additional observations from a re-analysis of the deposited data

Results flagged for a closer look

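Mlycd, malonyl-CoA decarboxylase, was the lone member past 2-fold in opposite directions with banding: higher in the WT pool (2.76, a bound) and lower in the pool of mice lacking IL-18 (-1.99). The banding responses differed by -4.75, and with 1 array per group that difference was not tested.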

How the results depend on the processing

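With 1 array per group no replicate could be left out, and no paired analysis was possible because the groups hold 1 array each and the labels give no replicate numbers. Of 100 counts of members past 2-fold under the alternatives, 83 stayed within 1.5 times their value. The number lower in wild-type banding, 0, was 1 with a floor of 32, no floor or median centring and 2 with quantile normalization or a 1.5-fold threshold. The number lower in IL-18 null banding, 1, was 3 with quantile normalization, cyclic loess or median centring, Acacb and Pdk2 being added, and 7 at 1.5-fold, where the number higher was 1 in place of 0. The number lower in IL-18 null sham against wild-type sham, 1, was 0 with the mean of all probe sets, with the second probe set or without probe sets whose names end in _x_at, _s_at or _a_at; the number for which the difference of responses was at least 1 was 0 under the same settings and 2 with a floor of 32. The median of the members ranged from -0.45 to -0.27 in IL-18 null banding and from -0.45 to -0.22 between the banded arrays, but from -0.09 to 0.92 in wild-type banding and from 0.06 to 0.92 between the shams. Of single members past 2-fold, 296 values kept their side and direction, 10 were no longer past 2-fold, and 3 changed sign, all on the second probe set: Decr1 (-0.27) and Hsd17b10 (-0.03) in wild-type banding and Hsd17b10 (-0.13) between the shams. Quantile normalization moved the median of all genes from -0.08 to -0.42 in wild-type banding, and the shares of all genes higher and lower there were 16.6% and 24.8%. In the difference of responses those shares were 28.1% and 17.4%.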
